A study of Homo sapiens with 6 samples.

Results

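RSAD2, CMPK2, IFIT1, IFIT2, IFIT3 and IFIT5 are interferon-induced antiviral genes, and they were taken as the rows of the deposited expression matrix that carry exactly these gene names. All 6 were found among 27887 rows, and all 6 passed the filter of a mean of at least 1 FPKM (fragments per kilobase of transcript, scaled to the mapped fragments of a library) that 13409 genes passed. The genes were chosen by their difference between the shHMGB2 and mock libraries, so that difference is given as a description, without a p-value. The study sequenced polyadenylated RNA of KYSE450, a cell line grown from a human squamous carcinoma of the esophagus. The mock group holds 3 libraries of cells labelled wild type that received a mock virus. The shHMGB2 group holds 3 libraries of cells labelled HMGB2 knockdown that received a virus with a short hairpin RNA against HMGB2. Both groups were therefore exposed to virus, and no untreated cells are among the libraries. The labels call replicates 2 and 3 of each group repeats and name no separate cultures, so the spread behind every p-value may be technical. The labels do not say if a hairpin was in the mock virus, and 1 cell line was used. In bulk RNA, fewer cells of a type and less RNA per cell cannot be told apart.

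The proteins act at different steps of a cell's defence against viruses. Viperin, the product of RSAD2, is a radical enzyme with an iron-sulfur cluster that turns CTP into a chain-terminating nucleotide, and it sits on the endoplasmic reticulum and lipid droplets. CMPK2 is a mitochondrial kinase of pyrimidine nucleotides that lies next to RSAD2 in the genome. IFIT proteins are built of tetratricopeptide repeats: IFIT1 binds RNA whose cap lacks a methyl mark, IFIT2 and IFIT3 join it in complexes, and IFIT5 binds RNA with a free triphosphate end. Transcription of these genes follows interferon signalling through a complex with STAT2 and IRF9 that binds the interferon-stimulated response element, and some of them can also be switched on directly by IRF3.

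The library labels were checked on the hairpin's target. HMGB2, a chromatin protein, stood at 115.8, 111.4 and 108.6 FPKM in mock and at 22.1, 24.5 and 27.8 FPKM after the knockdown, a log2 difference of -2.14 (SE 0.084, limma adjusted p = 0.000113). Summed FPKM per library ranged from 740684 to 829437. No read counts per library were used here. The most frequent group value of genes seen in 1 library alone, which falls as depth rises, differed 1.88-fold between libraries and was highest in shHMGB2 replicate 3. Across all genes tested 442 were called higher and 463 lower in limma at an adjusted p of 0.05, a split that became 349 and 571 under median-of-ratios scaling. Leaving out mock replicate 2 or shHMGB2 replicate 1, 2 or 3 left 123, 111, 97 and 118 genes higher and 204, 209, 193 and 193 lower. Of 8 squamous markers all were tested, with 1 called higher and 2 lower, and their summed level was 6220 to 6330 FPKM in mock and 5490 to 6170 FPKM in shHMGB2. Markers of leukocytes (6), plasmacytoid dendritic cells (3), fibroblasts (6) and endothelium (5), cells that could make or answer interferon, each had 1 tested gene, of which the leukocyte marker CD68 was called lower and the others were not called. Summed levels of these lists were 7.07 to 7.91, 2.24 to 3.28, 2.91 to 3.69 and 1.88 to 2.58 FPKM in mock, and 4.64 to 5.16, 3.98 to 4.01, 3.96 to 4.38 and 2.39 to 2.80 FPKM in shHMGB2. The pan-leukocyte marker PTPRC had a mean of 0.0133 FPKM in mock and 0.00667 FPKM in shHMGB2. Among the other untested leukocyte markers the mean of CSF1R went from 0.0367 to 0.0167 FPKM. Those of CD14, LYZ and ITGAM went the other way, from 0, 0.0367 and 0.16 FPKM to 0.0833, 0.107 and 0.207 FPKM. No direction is read from values this low. CLEC4C of plasmacytoid dendritic cells was listed at 0 in 5 of 6 libraries. IL3RA of the same list had means of 0.00667 FPKM in mock and 0.0167 FPKM in shHMGB2. TCF4, the tested gene of that list, went the other way from absence, with 2.22, 3.23 and 3.28 FPKM in mock. It had 3.99, 4.01 and 3.89 FPKM in shHMGB2, without overlap (log2 difference 0.36, limma adjusted p = 0.112). TCF4 was higher by the adjusted p of the authors' deposited table. LUM, the tested fibroblast marker, had means of 2.57 FPKM in mock and 3.49 FPKM in shHMGB2, also without overlap (limma adjusted p = 0.0944). ERG, the tested endothelial marker, overlapped between groups (limma adjusted p = 0.527).

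The promoters are shown first, because the interferon-stimulated response element is the sequence through which these genes are known to be induced. The windows run from 250 bases before to 50 bases after each RefSeq transcription start on GRCh38.p14, and 5 of the 6 genes have at least 1 window in the table; IFIT2 has none there. The core of the element was searched on both strands as GAAA, any 2 bases and GAAA. A shorter form, GAAA, any 1 base and GAAA, was added after the sequences were seen. Capitals mark the matches and each sequence reads 5′ to 3′ on the gene's own strand.
IFIT1: tagTTTCACTTTCcccTTTCGGTTTCccta
IFIT3 distal: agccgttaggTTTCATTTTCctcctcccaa
IFIT3 proximal: tttaaattagTTTCACTTTCcagtttcctc
IFIT5 distal: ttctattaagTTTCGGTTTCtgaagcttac
IFIT5 proximal: agTTTCGATTTCttaagTTTCAGTTTCtga
RSAD2 downstream start: ctgtttcaacTTTCAGTTTCacatgtggaa
RSAD2 upstream start, first of the shared matches: gcgccagcggGAAACGAAAgcgaagcgttg
RSAD2 upstream start, second of the shared matches: gcgttgcgggGAAACGAAAgccggaggccc
CMPK2, second of the shared matches: ggcctccggcTTTCGTTTCcccgcaacgct
CMPK2, first of the shared matches: aacgcttcgcTTTCGTTTCccgctggcgcc

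The IFIT1 stretch lies at chr10:89392504-89392533 on the plus strand, with its first match starting 116 bases before the start at 89392623. The IFIT3 stretches lie at chr10:89327831-89327860 and chr10:89327865-89327894, before the start at 89327997. A second IFIT3 start at 89332529 has 2 further matches of the core in its window, the nearer one overlapped by a match of the shorter form. The IFIT5 stretches lie at chr10:89414513-89414542 and chr10:89414547-89414576, and the last of the 3 IFIT5 matches spans the start at 89414568. The RSAD2 stretch lies at chr2:6877622-6877651, and the match in it begins 145 bases before the start at 6877777. RSAD2 has another start at 6865885, inside the span of CMPK2, and that window holds 4 matches of the shorter form and none of the core. The 2 matches nearest to that start are the same bases as the CMPK2 matches read on the opposite strand, at chr2:6865801-6865809 and chr2:6865825-6865833. The genes thus share these sequences head to head. In the window of the CMPK2 start at 6865819 they begin 14 bases before the start and 10 bases after it, while the windows of its starts at 6865907 and 6866635 hold neither form.

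Matches to the core were rare among promoters at large. Of 35116 windows, 3.57% held the core, 3.12% the shorter form and 6.40% either. By gene, 4.38% of 27305 genes had the core in at least 1 window and 3.87% the shorter form. Among 39 other interferon effectors with a window, known interferon-stimulated genes by choice, 25 had the core (64.1%) and 17 the shorter form (43.6%). The GAS element, TTC, any 3 bases and GAA, is known from genes that answer interferon gamma. It was in 7.66% of windows and, by gene, in at least 1 window of 9.38% of genes. Of the 39 effectors 13 had it (33.3%), and no window of the 5 members did. A match is a description of letters and says nothing of binding in these cells.

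All 6 members were higher in shHMGB2 than in mock, with every shHMGB2 library above every mock library for each gene. Mean FPKM ratios ran from 1.45 for IFIT5 to 2.2 for RSAD2. Non-overlap in that direction was seen in 21.6% of all genes tested. All 6 were among the genes called higher in limma, against 3.30% of all genes tested called higher, 3.45% called lower and 6.75% called either way. Since this contrast chose the members, nothing is read from these counts. The median log2 difference of the members was 0.77, and that of all genes tested was 0.04. By the adjusted p of the authors' deposited table all 6 were higher, against 6.13% of 13585 genes with a value there. RSAD2 alone of the 6 is marked Up in the authors' deposited table, against 0.132% of those genes.

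RSAD2 encodes viperin and had the largest difference of the 6. It had 13.5, 13.97 and 13.6 FPKM in mock replicates 1, 2 and 3, and 29.7, 30.8 and 30.1 FPKM in shHMGB2 replicates 1, 2 and 3. The lowest shHMGB2 library was thus 2.13-fold above the highest mock library. The means were 13.7 ± 0.236 and 30.2 ± 0.525 FPKM (SD, n = 3 each), a log2(FPKM + 1) difference of 1.08 (SE 0.053). Replicates lay close together, with a coefficient of variation of 1.72% in mock and 1.74% in shHMGB2. By size of difference RSAD2 ranked 5 among the genes called higher and 35 from the top among all 13409 genes tested. This contrast chose RSAD2, so nothing is read from the rank.

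CMPK2, the nucleotide kinase beside RSAD2, was 28.1, 30.04 and 28.8 FPKM in mock and 43.7, 46.3 and 46.5 FPKM in shHMGB2. Its groups were separated by 13.6 FPKM at their nearest libraries. The means were 28.99 ± 0.970 and 45.5 ± 1.59 FPKM (SD, n = 3 each), a 1.57-fold ratio and a log2(FPKM + 1) difference of 0.63 (SE 0.056). The neighbours therefore differed in size of change: the FPKM ratio of RSAD2 to CMPK2 was 0.465 to 0.481 in the mock libraries and 0.648 to 0.680 in the shHMGB2 libraries. Their gene spans share 751 bases on opposite strands. The sources used here do not say whether the authors' counting used strand, and without it reads from that stretch cannot be told apart.

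IFIT1, the reader of RNA caps, had 64.7, 80.7 and 71.5 FPKM in mock and 121.1, 130.8 and 137.1 FPKM in shHMGB2. The means were 72.3 ± 7.99 and 129.7 ± 8.08 FPKM (SD, n = 3 each), with a log2(FPKM + 1) difference of 0.84 (SE 0.090), the largest of the IFIT genes. Its mock libraries spread more than those of IFIT2 and IFIT3, with a coefficient of variation of 11.1%. IFIT2, which joins IFIT1 and IFIT3 in complexes, had 20.4, 23.6 and 21.9 FPKM in mock and 37.5, 39.7 and 39.9 FPKM in shHMGB2. Its log2(FPKM + 1) difference was 0.80 (SE 0.068), and its means were 21.96 ± 1.60 and 39.05 ± 1.31 FPKM (SD, n = 3 each). For both genes every shHMGB2 library was at least 1.5-fold above the highest mock library.

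IFIT3, which stabilizes IFIT1 on RNA, was the most abundant member per length in every library. It had 103.8, 115.4 and 108.9 FPKM in mock and 178.2, 181.3 and 188.0 FPKM in shHMGB2. The means were 109.4 ± 5.83 and 182.5 ± 4.98 FPKM (SD, n = 3 each), with a log2(FPKM + 1) difference of 0.73 (SE 0.059). Its nearest libraries of the groups lay 62.8 FPKM apart. IFIT5, which binds RNA without the other IFIT proteins, had the smallest difference. It had 16.3, 20.7 and 19.8 FPKM in mock and 26.9, 28.3 and 27.4 FPKM in shHMGB2, with a gap of 6.17 FPKM between the nearest libraries of the groups. Its means were 18.95 ± 2.30 and 27.5 ± 0.738 FPKM (SD, n = 3 each), with a log2(FPKM + 1) difference of 0.52 (SE 0.090), and it was the member that left the genes called when any 1 shHMGB2 library was left out, with a log2(FPKM + 1) difference of 0.54, 0.50 and 0.53 without replicate 1, 2 and 3.

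**Figure D1:**
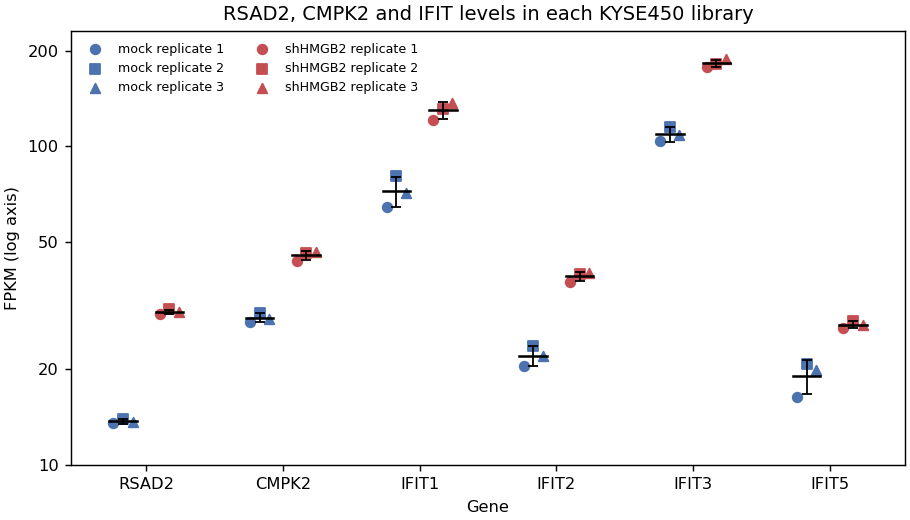
Level of each member in every library, in FPKM on a log axis. Circles, squares and triangles are replicates 1, 2 and 3, blue is mock and red is shHMGB2; horizontal bars are group means and error bars SD (n = 3). For each gene the 3 shHMGB2 points lie above the 3 mock points, with the widest relative gap for RSAD2 (2.13-fold between nearest libraries) and the narrowest for IFIT5 (1.30-fold).

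The order of levels per length was nearly the same in both groups. In mock it ran from IFIT3 through IFIT1, CMPK2, IFIT2 and IFIT5 down to RSAD2, and IFIT2 and IFIT5 overlapped (20.4 to 23.6 and 16.3 to 20.7 FPKM). In shHMGB2 RSAD2 and IFIT5 changed places and no neighbours in the order overlapped. The FPKM ratio of RSAD2 to IFIT5 was 0.675 to 0.827 in the mock libraries and 1.09 to 1.11 in the shHMGB2 libraries. Within the IFIT cluster the proportions moved less. IFIT1 had 0.624 to 0.699 of the IFIT3 level in mock and 0.679 to 0.730 in shHMGB2, which overlap. IFIT2 had 0.196 to 0.204 of the IFIT3 level in mock and 0.211 to 0.219 in shHMGB2. IFIT5 had 0.157 to 0.182 of it in mock and 0.146 to 0.156 in shHMGB2. These are the members' own values in the contrast that chose them and were not tested.

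Libraries of 1 group also differed in these genes. Mock replicate 1 was the lowest and mock replicate 2 the highest mock library for all 6 members, and shHMGB2 replicate 1 was the lowest of its group for all 6. Among all genes tested 18.5% were lowest in replicate 1 of both groups, and among 46 other interferon effectors 9 were (19.6%). Under median-of-ratios scaling, chosen after seeing the data, 5 of 6 members had this pattern, against 17.2% of all genes tested. The members' summed level was 246.9, 284.4 and 264.6 FPKM in mock and 437.1, 457.1 and 469.0 FPKM in shHMGB2. This contrast chose the members and the libraries may be technical repeats, so nothing is read from the distance between groups. RSAD2 varied least, by at most 0.026 log2 units from its group mean, and IFIT5 lay at -0.196 log2 units from its group mean in mock replicate 1.

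**Figure D2:**
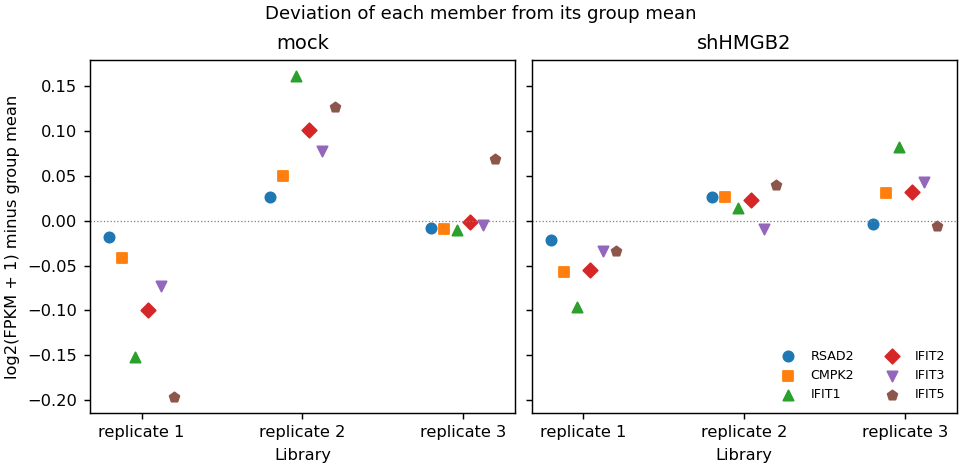
Deviation of each member from its group mean on the log2(FPKM + 1) scale, by library, with mock on the left and shHMGB2 on the right; each marker is 1 gene in 1 library. All 6 members lie below 0 in replicate 1 of both groups and above 0 in mock replicate 2.

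The IFIT genes stand in 1 cluster on chromosome 10, and RSAD2 and CMPK2 stand together on chromosome 2. On GRCh38.p14 the cluster reaches from IFIT2 (89302046 to 89309271) over IFIT3 (89327997 to 89340968) and IFIT1 (89392623 to 89406487) to IFIT5 (89414568 to 89420997), about 119 kb in all. CMPK2 spans 6840553 to 6866635 and RSAD2 spans 6865885 to 6898239. IFIT1B, a relative of IFIT1 inside the cluster, had a mean of 0.0467 FPKM in mock and 0.127 in shHMGB2, too low to be tested. CH25H, the interferon-inducible cholesterol 25-hydroxylase next to the cluster, had a mean of 0.0300 FPKM in both groups and was not tested either.

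Genes beside the members did not move as 1 block. Of 17 coding neighbours within 1 Mb of the IFIT cluster, 7 were tested in limma, with 2 called higher and 1 lower. Over all genes tested 3.30% were called higher and 3.45% lower. LIPA, the lysosomal acid lipase, whose annotated span covers 3 of the 4 IFIT genes on the opposite strand, went from 71.0 ± 1.43 to 85.2 ± 1.93 FPKM (SD, n = 3 each; log2 difference 0.26, limma adjusted p = 0.0276). FAS, a death receptor, had a log2(FPKM + 1) difference of 0.54 (SE 0.091, limma adjusted p = 0.0166) and STAMBPL1, a deubiquitinase, of -0.48 (SE 0.095, limma adjusted p = 0.0287). LIPA was no longer called without mock replicate 2 (limma adjusted p = 0.118) or shHMGB2 replicate 1, 2 or 3 (0.0746, 0.106 and 0.113). Leaving out mock replicate 2, shHMGB2 replicate 2 or shHMGB2 replicate 3 took FAS out of the called genes (limma adjusted p = 0.0669, 0.0705 and 0.0694), and STAMBPL1 without mock replicate 1 or 2 or shHMGB2 replicate 1 or 3 (0.0576 to 0.107). RNF144A, the single coding neighbour of RSAD2 and CMPK2 in that distance, was not called (log2 difference 0.34, limma adjusted p = 0.0808). It had 1.43, 1.62 and 1.79 FPKM in mock and 2.55, 2.33 and 2.06 FPKM in shHMGB2, without overlap. By the adjusted p of the authors' deposited table it was higher.

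**Figure D3:**
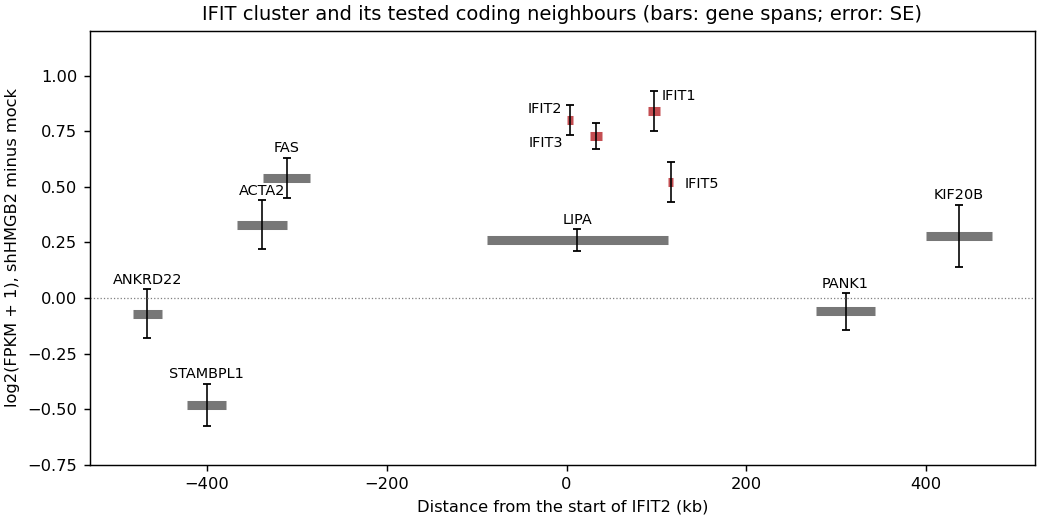
Difference between shHMGB2 and mock on the log2(FPKM + 1) scale for the IFIT genes (red) and the 7 tested coding neighbours (grey), against distance from the start of IFIT2 in kb; bar lengths are gene spans and error bars are SE. The IFIT genes lie between 0.52 and 0.84, while the neighbours run from -0.48 for STAMBPL1 to 0.54 for FAS, with LIPA at 0.26.

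Sequence shared with other genes could move reads between rows. In words of 100 bases, 0% of the longest coding transcript of RSAD2, CMPK2, IFIT1, IFIT3 or IFIT5 occurred in a transcript of another gene in GENCODE 29. For IFIT2 it was 7.13%, all of it shared with AL353751.1, a long non-coding RNA annotated at its start. In words of 50 bases IFIT1 shared 1.03%, mostly with IFIT1B, IFIT2 shared 8.87%, IFIT3 3.84% and RSAD2 0.288%, while CMPK2 and IFIT5 shared 0%. The sources used here do not give the read length.

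Upstream of the members, the genes that start interferon production were mixed. Of 21 such genes, 15 were tested and 5 were called higher and 1 lower in limma, with a median log2 difference of 0.22. Among all genes tested the shares called were 3.30% and 3.45%, and the median was 0.04. At an unadjusted p under 0.05 in limma 9 were higher and 4 lower, and 5 and 3 in the authors' deposited table. The RNA sensor IFIH1 rose from a mean of 31.7 ± 3.61 FPKM (SD, n = 3) to 52.6 ± 1.47 FPKM (SD, n = 3; log2 difference 0.72, limma adjusted p = 0.00477). DHX58, its regulator, rose with a log2 difference of 0.62 (limma adjusted p = 0.0202), and DDX58, TLR3 and IKBKE were the other genes called higher. IRF7, a transcription factor of interferon genes, fell from 2.47, 2.33 and 1.76 FPKM to 1.15, 0.96 and 1.43 FPKM (limma adjusted p = 0.0483). IRF3, chosen after its values were seen, had 56.2, 51.7 and 49.5 FPKM in mock and 48.1, 45.2 and 43.4 FPKM in shHMGB2. Its groups did not overlap, and it was not called (log2 difference -0.20, limma adjusted p = 0.119). The IRF7 call was lost without mock replicate 1, mock replicate 2 or any single shHMGB2 library, at a limma adjusted p of 0.0738 to 0.152, and that of DHX58 without mock replicate 2 or shHMGB2 replicate 1 (0.0653 and 0.0662). The 5 genes called higher became 2 when shHMGB2 replicate 1 or 3 was left out, and 3 when shHMGB2 replicate 2 or mock replicate 2 was left out. The 1 called lower became 0 in all these cases and without mock replicate 1.

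Interferon transcripts themselves were near the limit of the table. IFNB1, a type I interferon, had 0.74, 0.81 and 0.92 FPKM in mock and 1.23, 1.23 and 0.59 FPKM in shHMGB2, so the groups overlap. IFNL1, IFNL2 and IFNL3, the type III interferons, had means of 0.487, 0.140 and 0.277 FPKM in mock and 0.460, 0.287 and 0.413 FPKM in shHMGB2. None of these 4, nor IFNA1, reached the mean of 1 FPKM needed for the test, and no direction is read from them. IFNE, a type I interferon of epithelia, was the 1 interferon gene of the list that was tested. It had 1.49, 1.42 and 1.71 FPKM in mock and 2.10, 1.81 and 2.52 FPKM in shHMGB2. Every shHMGB2 library was above every mock library, and IFNE was not called (log2 difference 0.30, limma adjusted p = 0.13; chosen after its values were seen).

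Receptor signalling genes, which carry the interferon signal to the members' promoters, moved in part. Of 16 genes tested 5 were called higher and 0 lower in limma, against 3.30% and 3.45% of all genes tested. In limma 1 was lower at an unadjusted p under 0.05, and 1 was lower in the authors' deposited table. The median log2 difference was 0.14, against 0.04 for all genes tested. STAT2 rose from a mean of 31.9 ± 2.88 FPKM (SD, n = 3) to 49.6 ± 3.28 FPKM (SD, n = 3; log2 difference 0.63, limma adjusted p = 0.00644). Its partner IRF9 had a log2 difference of 0.20 and was not called (limma adjusted p = 0.14). The feedback inhibitors USP18 and SOCS1 were called higher, USP18 from 71.4 ± 4.15 to 111.0 ± 3.58 FPKM (SD, n = 3 each; log2 difference 0.63, limma adjusted p = 0.0021). SOCS1 was no longer called when mock replicate 2, mock replicate 3, shHMGB2 replicate 1 or shHMGB2 replicate 2 was left out (limma adjusted p of 0.0576 to 0.104). The 5 genes called higher became 3 in these cases, except without mock replicate 3.

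Most other interferon effectors were called higher as well. Of 50 genes, 46 were tested and 33 were called higher in limma, with a median log2 difference of 0.48 against 0.04 for all genes tested; 41 of the 46 did not overlap between groups in that direction. Over all genes tested 3.30% were called higher and 21.6% did not overlap in that direction. This list, like the others, was chosen with earlier results of these data known, and no list was tested against all genes. The count called lower was 0 in limma, 0 at an unadjusted p under 0.05 and 0 in the authors' deposited table. SAMD9L, an antiviral protein, rose by a log2 difference of 1.11, XAF1, an apoptosis factor, by 0.99, RNF213, a ubiquitin ligase, by 0.91, and TRIM22, an antiviral ligase, by 0.90 (limma adjusted p = 0.00544, 0.00289, 0.0200 and 0.000801). TNFSF10, the death ligand TRAIL, rose by 0.82 and PARP14, an ADP-ribosyltransferase, by 0.70 (limma adjusted p = 0.000807 and 0.00686). Of the 6 members, RSAD2 at 1.08 lay near the top of this range and IFIT5 at 0.52 near its median. RNF213 was no longer called when mock replicate 2, shHMGB2 replicate 1 or shHMGB2 replicate 2 was left out (limma adjusted p = 0.0645, 0.065 and 0.0611). The 33 genes called higher became 21 without shHMGB2 replicate 1 and 22 without shHMGB2 replicate 2 or 3.

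Genes known mainly from the answer to interferon gamma had 23 rows, of which 13 were tested and 6 were called higher in limma. The share called higher among all genes tested was 3.30%. GBP1, a guanylate-binding protein, rose by a log2 difference of 1.01, APOL2, an apolipoprotein, by 0.85 and the chemokine CXCL10 by 0.64 (limma adjusted p = 0.00145, 0.000994 and 0.0195). The count called lower was 0 in limma, 0 at an unadjusted p under 0.05 and 0 in the authors' deposited table. CXCL10 was no longer called when mock replicate 2 or any single shHMGB2 library was left out (limma adjusted p of 0.0563 to 0.0833), and the 6 genes called higher became 3 in each of these cases.

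Genes that serve or neighbour viperin and CMPK2 in function were counted next. The share called either way among all genes tested was 6.75% in limma, so nothing is read from low counts in lists of this size. Of 15 genes of iron-sulfur assembly, which equips viperin with its cluster, 0 were called higher in limma (0 at an unadjusted p under 0.05 and 0 in the authors' deposited table) and 1 lower. That gene was CIAO2B, a subunit of the targeting complex, which fell from a mean of 120.5 ± 6.06 FPKM (SD, n = 3) to 90.8 ± 5.58 FPKM (SD, n = 3; log2 difference -0.41, limma adjusted p = 0.016). Leaving out shHMGB2 replicate 1 or shHMGB2 replicate 3 ended that call (limma adjusted p = 0.0619 and 0.0679). Of 12 reported partners of viperin 0 were called in limma, where 3 were higher and 2 lower at an unadjusted p under 0.05 and 2 and 2 in the authors' deposited table. The smallest p there belonged to GBF1, a Golgi exchange factor, with a log2 difference of 0.41 (SE 0.098, limma adjusted p = 0.0514). FDPS, the farnesyl diphosphate synthase of the cholesterol pathway that viperin binds, had 367.4, 351.3 and 324.2 FPKM in mock and 316.1, 327.0 and 333.1 FPKM in shHMGB2, with overlapping groups (log2 difference -0.09, limma adjusted p = 0.373; chosen after its values were seen).

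Of 25 pyrimidine nucleotide genes tested 1 was called higher and 2 lower in limma, against 3.30% and 3.45% of all genes tested. The median log2 difference of the list was -0.01, against 0.04 for all genes tested. SAMHD1, a dNTP hydrolase that restricts viruses, rose from 32.9, 34.5 and 35.9 FPKM to 59.4, 58.2 and 57.2 FPKM (log2 difference 0.74, SE 0.056, limma adjusted p = 0.000807). UPP1, a uridine phosphorylase, fell from a mean of 38.0 ± 4.43 FPKM (SD, n = 3) to 20.3 ± 2.53 FPKM (SD, n = 3; log2 difference -0.88, limma adjusted p = 0.00561). DCK, a nucleoside kinase, was the other gene called lower (limma adjusted p = 0.041). CMPK1, the cytosolic relative of CMPK2, was not called (log2 difference 0.14, limma adjusted p = 0.22; chosen after its values were seen). The DCK call was lost when any single library was left out (limma adjusted p of 0.0533 to 0.128), so the count called lower was 1 in each case.

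No gene of the machinery that IFIT proteins bind or read was called in limma. Since 6.75% of all genes tested were called either way, nothing is read from 0 calls in lists of 14. Of 14 subunits of eIF3, the translation factor that IFIT1 and IFIT2 bind, 0 passed in limma, with 0 higher and 3 lower at an unadjusted p under 0.05 and the same counts in the authors' deposited table. Their median log2 difference was -0.09, and the smallest p belonged to EIF3M (log2 difference -0.17, limma adjusted p = 0.129). Of 14 genes that build, trim or read RNA caps and ends 0 passed in limma, with 5 higher and 1 lower at an unadjusted p under 0.05 and 4 and 1 in the authors' deposited table. CMTR1, an interferon-inducible methyltransferase that sets the cap mark which IFIT1 senses, had 27.6 ± 1.495 and 33.5 ± 1.83 FPKM (SD, n = 3 each; log2 difference 0.27, limma adjusted p = 0.0548).

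**Figure D4:**
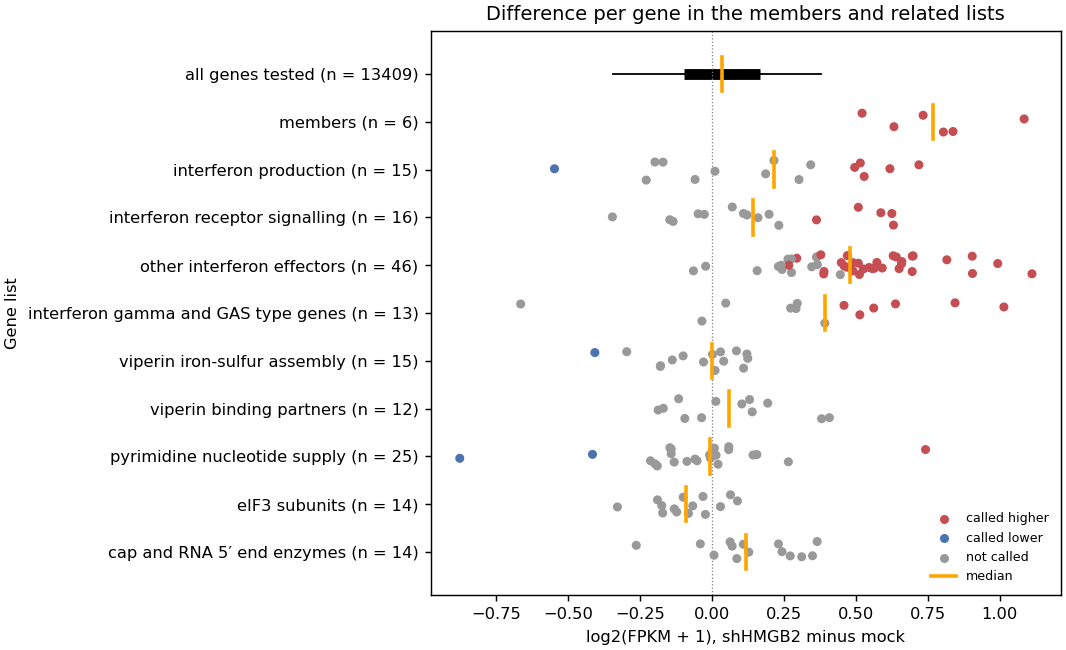
Difference between shHMGB2 and mock on the log2(FPKM + 1) scale for each tested gene of the members and of 9 related lists; red, blue and grey points are genes called higher, lower and not called in limma, and orange lines are medians. The top row gives all genes tested (thick bar 25th to 75th percentile, thin line 5th to 95th). The members (median 0.77) and other interferon effectors (median 0.48) lie to the right of all genes (median 0.04), while the lists of eIF3, iron-sulfur assembly and pyrimidine genes centre near 0.

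The genes most like a member were found by the root mean square distance between log2(FPKM + 1) values, each minus its mock mean, over the 6 libraries and among 9244 other genes whose mean reached 5 FPKM. Nearest to RSAD2 were CFL2, HMGA2, GBP1, TNRC6A and XAF1, at distances of 0.060 to 0.13 log2 units. CFL2 went from 5.03, 5.06 and 5.62 FPKM to 11.3, 12.6 and 11.9 FPKM. Every other member was farther from RSAD2 than these 5, at 0.20 for IFIT1 and IFIT2 and 0.41 for IFIT5. Nearest to IFIT1 among other genes were TRIM22, LAMP3, SMN1-4, STRADB and ZNF367, at 0.082 to 0.11 log2 units, while IFIT2 lay at 0.048 and IFIT3 at 0.092. SMN1-4 is a numbered copy of another row, so its value is uncertain. By this distance IFIT1 and IFIT2 lay nearer to each other than RSAD2 lay to any other member. The distance includes the shHMGB2 minus mock difference that chose the members, so it largely reflects the size of that difference. Shared variation among the libraries of a group was not tested.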

How the data were processed

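The authors deposited 1 table for the 6 libraries, with FPKM values per library, per the file headers. The submitters' processing notes name Bowtie2 2.2.5, RSEM 1.2.12 and hg38 and give them no role. The authors' deposited table also holds a normalized signal per group, and its log2 fold change is the log2 of the treat over the control signal. The sources used here do not give the test behind the authors' deposited p-value. Read counts were not used here.

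The log2(FPKM + 1) values of the 13409 genes that reached 1 FPKM in the mean entered a limma model (version 3.58.1, R 4.3.3). Group was the only term, the variance prior followed mean expression, and p-values (2-sided) were adjusted by Benjamini-Hochberg over all genes. "Called" means an adjusted p under 0.05. Differences on this scale understate those of low genes. The fit was tested on simulated data.

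The members and lists (9 pathway, 5 marker) were chosen with earlier results of these data known. Named genes are all members, up to 3 called genes with the largest difference per list (6 for other effectors) or the smallest p where none passed, adjacent or called neighbours, and the 5 nearest profiles. Promoters are from RefSeq (GRCh38.p14) and transcripts from GENCODE 29; protein sequences were not used here. Alternatives were pseudocounts of 0.1 and 5, no filter, 3 other scalings, no variance trend, weighted libraries, a replicate block, the authors' adjusted p and each library left out. A gene of the receptor signalling list is not reported here by name.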

Additional observations from a re-analysis of the deposited data

How the results depend on the processing

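All 6 members were higher in shHMGB2 under each of 15 alternatives, with log2 differences of 0.91 to 1.13 for RSAD2, 0.57 to 0.66 for CMPK2, 0.72 to 0.92 for IFIT1, 0.71 to 0.85 for IFIT2, 0.67 to 0.79 for IFIT3 and 0.42 to 0.59 for IFIT5. This contrast chose the members, and their groups did not overlap. Leaving out a library or changing the pseudocount could therefore not reverse the direction, and nothing is read from it. The number of members called was 5, without IFIT5, with no filter on low values and without any 1 shHMGB2 library, and 6 otherwise. FPKM gives no read counts, so counting error per gene could not be set apart.

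With no filter, which tests more genes, 167 genes were higher and 245 lower, and 3 production, 3 receptor and 3 gamma type genes were higher, with 0 production and 1 pyrimidine gene lower. With library weights 2436 were higher and 1758 lower. There 8 production, 4 partner, 3 pyrimidine and 5 cap genes were higher, and 4 production, 1 receptor, 4 iron-sulfur, 2 partner, 4 pyrimidine, 3 eIF3 and 1 cap gene lower. By the authors' adjusted p 833 were higher and 1254 lower, with 2 partner and 4 cap genes higher, and 3 production, 1 receptor, 3 iron-sulfur, 2 partner, 4 pyrimidine, 3 eIF3 and 1 cap gene lower. A replicate block gave 138 higher and 234 lower, with 3 production genes higher and 0 production and 0 iron-sulfur genes lower; it lost no member. Same-numbered libraries share only a number: their deviations from the group means correlated at -0.0116, -0.0377 and -0.0959. A pseudocount of 0.1 gave 2 pyrimidine genes higher and 0 production genes lower, and no mean-variance trend gave 1 pyrimidine gene lower. Quantile normalization gave 2 partner genes and 1 cap gene higher, and upper-quartile scaling 1 partner gene higher. The cause of these moves was not tested.

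Leaving out 1 library gave 97 to 449 genes higher and 193 to 446 lower. Higher were 21 to 36 other effectors, 2 to 5 production, 3 to 5 receptor, 3 to 5 gamma type and 0 to 1 partner genes; lower were 0 to 1 production, 0 to 2 iron-sulfur and 1 to 1 pyrimidine genes.

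Of the genes named in the report, DHX58, IRF7, SOCS1, RNF213, CXCL10, FAS, STAMBPL1 and DCK were not called with no filter (limma adjusted p = 0.073, 0.128, 0.0929, 0.0789, 0.0765, 0.057, 0.0878 and 0.105). DHX58, IRF7, RNF213, CIAO2B, LIPA and STAMBPL1 were not called with a replicate block (0.0663, 0.114, 0.075, 0.0648, 0.0791 and 0.0615 in limma). IRF7 was not called with a pseudocount of 0.1 (limma adjusted p = 0.0523), nor DCK without the trend (0.0507). GBF1 passed with library weights, upper-quartile scaling and quantile normalization, CMTR1 with library weights and quantile normalization, and EIF3M with library weights. TCF4 and LUM each passed in 1 alternative.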
